A study of Mus musculus with 20 samples.

Results

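The genes described here are the numbered Zfp genes that mouse embryonic stem cells were transcribing, in a study that blocked RNA polymerase II with either of 2 drugs. They were chosen by name, as Zfp followed by a number alone, and by a deposited value above 1 without drug, and Zfp42 and Zfp36 were left out by name. This gave 195 genes of the 22556 in the deposited table. The table holds 334 numbered Zfp genes, of which 137 lay at or below 1 without drug, 26 of these being listed at 0. Because the level without drug chose the members, every comparison of a drug with no drug is a description of these genes and not a test.

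All samples were E14 wild-type embryonic stem cells, a mouse line kept here in serum with leukemia inhibitory factor on gelatin. The groups were DRB at 100 µM for 2 h or 5 h, triptolide at 10 µM for 1 h or 2 h, and cells without drug, each with 2 replicates whose RNA was tagged for 10 min with 150 µM 4-thiouridine and 2 untagged background replicates. DRB inhibits the kinases that release the polymerase from its early pause, and triptolide blocks initiation through the TFIIH helicase. The tagged RNA fragments were captured and sequenced (in vivo transcription capture, iTC-seq), so a value reports RNA made during the pulse over the whole gene, introns included.

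The deposited table has 1 column per condition, in reads per kilobase of gene above background, and negative values were set to 0. Replicate error is therefore unknown and no difference has a test, so "higher" and "lower" below compare deposited values only. Brackets hold 95% intervals from an exact method that takes net reads as plain counts. They cover the counting error of net reads only, and not that of the subtracted background or of setting negative values to 0. Net reads over all genes numbered 1245285 in the column without drug. The DRB columns held 332908 at 2 h and 95064 at 5 h, and the triptolide columns 73616 at 1 h and 61972 at 2 h. Fewer cells and less new RNA per cell cannot be told apart in these bulk samples, nor can either be told apart from a scaling between columns that the sources used here do not give. Of 8 stem cell markers 7 lay above 1 without drug, and their summed level was 298.7, with Dppa5a listed at 0. Of 8 fibroblast and feeder markers 1 lay above 1 and 5 were listed at 0, and none of 8 primitive endoderm markers lay above 1.

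Zfp is the mouse name for zinc finger proteins, most of which read DNA through tandem C2H2 fingers, short loops that hold a zinc ion and each contact a few bases. Many also carry a KRAB domain, which recruits the corepressor Trim28 (KAP1) and through it the histone methyltransferase Setdb1, heterochromatin proteins and DNA methylation. In embryonic stem cells KRAB zinc finger proteins are known for silencing retroelements and for guarding imprinted genes, and their genes lie largely in clusters of related copies. A KRAB A-box pattern was found in the translated coding sequence of 90 members and not in 104, and 1 member had no coding sequence matched. The median member had 10 fingers, the most had 36, and members with the KRAB pattern had a median of 12 against 8 in members without it. Within 250 kb of another Zfp gene, with or without a letter after its number, lay 118 members, among them 72 of the 90 with the KRAB pattern. The members stood on 20 chromosomes, with 66 on chromosome 7 and 17 on chromosome 17, the next most.

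Reads of near-identical copies in these clusters may be split or lost in counting, and 38 members overlap another protein-coding gene while the use of strand is not given in the sources used here. Values of single clustered or overlapping members are uncertain for that reason. The percent of members lower and the percent of net reads changed little without the 38 except after 1 h of triptolide, where the percent of net reads kept was 5.31% without them and 4.54% with them. The percent of members higher with DRB than with triptolide at 2 h was 14% without them and 19.5% with them.

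RefSeq promoter windows of GRCm38.p6, 250 bases before to 50 bases after a gene's start, were matched for 163 of the 195 members, 2 of them through an older name. Only the first listed window of each gene was used, so other starts of a gene were not searched. The letters searched on both strands were TATAAA, the TATA box, then GGGCGG, the box bound by Sp1, then CCAAT, the box bound by NF-Y, then CGGAAG, the core of Ets sites, and CACGTG, the E-box, with 3 longer motifs taken by name: the palindrome of Nrf1, the Yy1 motif and the 11-base core of the site that the member Zfp143 is known to bind. The Zfp143 core was held by 20 of the 163 members (12.3%), against 2.58% of 6158 windows of genes above 1 without drug and 1.09% of all 27025 windows. It stood 21 times in the 20 members, because Zfp317 held it at 2 places, and no match overlapped another searched motif. Members on chromosome 7 held it in 14 of 60 windows (23.3%), and members elsewhere in 6 of 103 (5.83%). Of the 20 holders 17 lie within 250 kb of another Zfp gene, so they may descend from common copies and do not count as independent cases. A match is a run of letters and not a measured binding site.

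The 8 holders with the highest level without drug are shown because, as a ratio of shares, this motif set the members furthest apart from promoters of genes above 1; capitals mark the match, and each line reads the strand on which the motif runs 5′ to 3′.
Zfp566 (chr7:30090566-30090596, minus strand): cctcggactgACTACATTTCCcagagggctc
Zfp146 (chr7:30169850-30169880, plus strand): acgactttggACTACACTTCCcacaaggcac
Zfp1 (chr8:111643408-111643438, minus strand): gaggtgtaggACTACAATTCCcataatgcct
Zfp180 (chr7:24081865-24081895, minus strand): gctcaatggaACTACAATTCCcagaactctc
Zfp84 (chr7:29768520-29768550, minus strand): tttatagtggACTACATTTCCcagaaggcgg
Zfp14 (chr7:30051390-30051420, minus strand): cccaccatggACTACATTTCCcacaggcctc
Zfp93 (chr7:24270337-24270367, minus strand): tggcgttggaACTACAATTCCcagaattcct
Zfp60 (chr7:27731334-27731364, plus strand): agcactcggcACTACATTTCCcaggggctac
The bases ca follow the capitals in all 8 lines, and in 19 of the 21 matches. The holders' levels were close to those of other members: their median was 2.20 reads per kb without drug and 12.3% of that after 2 h of DRB, against 2.78 and 11.4% for the 143 members without the motif.

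As a ratio of shares the other motifs set the members less far apart from genes above 1, although in percentage points GGGCGG lay further off. GGGCGG was held by 46.6% of members, against 66.7% of windows of genes above 1 and 35.9% of all windows. CCAAT was held by 47.9% of members, against 40.3% and 37.9%, and by 57.0% of members with the KRAB pattern against 39.3% of those without. CGGAAG stood in 38% of members, 36.3% of windows of genes above 1 and 17.2% of all windows. TATAAA stood in 7.98%, 6.38% and 14.2% of the same windows. CACGTG was held by 6.75% of members, the Nrf1 palindrome by 4.29% and the Yy1 motif by 1.84%, against 11.3%, 2.32% and 2.13% of windows of genes above 1 and 7.24%, 0.977% and 0.699% of all windows. The ratio of observed to expected CpG had a median of 0.687 in members, between 0.797 in windows of genes above 1 and 0.389 in all windows. It was 0.575 in members with the KRAB pattern and 0.753 in those without.

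Full windows are shown for 3 members at the ends of the levels described below, with capitals again marking motif matches. Zfp296 had the highest level without drug and a CpG ratio of 0.661, and Zfp57 had the highest level of the members with the KRAB pattern and a CpG ratio of 0.295. The Zfp57 window lies inside the gene, whose GENCODE M21 span starts at chr17:37001163, and does not cover that start. Zfp13, with a CpG ratio of 0.537, kept the largest share of its level under triptolide among members with at least 20 net reads.
Zfp296 (chr7:19577037-19577336, plus strand): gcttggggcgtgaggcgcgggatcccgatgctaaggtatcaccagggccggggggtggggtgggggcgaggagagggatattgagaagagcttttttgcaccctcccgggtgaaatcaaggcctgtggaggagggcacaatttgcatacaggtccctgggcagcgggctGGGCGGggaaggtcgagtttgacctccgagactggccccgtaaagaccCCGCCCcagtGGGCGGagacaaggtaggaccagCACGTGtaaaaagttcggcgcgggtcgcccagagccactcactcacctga
Zfp57 (chr17:37003416-37003715, plus strand): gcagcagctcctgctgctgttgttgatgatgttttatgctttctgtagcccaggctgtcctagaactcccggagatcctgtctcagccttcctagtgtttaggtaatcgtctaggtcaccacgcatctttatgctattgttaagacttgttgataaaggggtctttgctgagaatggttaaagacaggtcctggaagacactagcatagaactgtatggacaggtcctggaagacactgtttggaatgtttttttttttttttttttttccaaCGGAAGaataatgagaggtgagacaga
Zfp13 (chr17:23599438-23599737, minus strand): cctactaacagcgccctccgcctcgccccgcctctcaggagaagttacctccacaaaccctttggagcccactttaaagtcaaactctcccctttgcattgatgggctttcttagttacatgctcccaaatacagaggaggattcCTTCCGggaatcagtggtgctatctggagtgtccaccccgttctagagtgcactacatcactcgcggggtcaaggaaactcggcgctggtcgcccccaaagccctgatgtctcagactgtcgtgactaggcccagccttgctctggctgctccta
The Zfp296 window holds GGGCGG at 3 places and CACGTG at 1, while the windows of Zfp57 and Zfp13 each hold CGGAAG once and none of the other motifs searched.

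Without drug the members were transcribed at modest levels. Their median was 2.78 reads per kb with quartiles of 1.69 and 5.22, against a median of 3.67 over all 8326 genes above 1. The median member rested on 45 net reads, 37 members had fewer than 20 and 53 had at least 100. All members together held 17589 net reads, 1.41% (1.39 to 1.43) of the reads over all genes. The members nearest the threshold of 1 were Zfp397 at 1.002, Zfp667 at 1.033 and Zfp786 at 1.034, and just below it and outside the set stood Zfp341 at 0.984, Zfp672 at 0.972 and Zfp933 at 0.946.

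The 10 highest members without drug ranged from 12.5 to 41.9 reads per kb. Zfp296, a zinc finger protein linked to reprogramming to pluripotency, lies on chr7:19577287-19580656 (GRCm38) and led with 41.9. Behind it stood Zfp428 at 32.5, Zfp553 at 31.1 and Zfp57 at 28.1, the imprint guardian that binds methylated DNA and recruits Trim28. Zfp819, a KRAB protein of pluripotent cells, had 17.5 and Zfp7 had 15.9. Zfp532, a partner in a chromatin reader complex, had 14.8 and, being 109.2 kb long, the most net reads of any member, 1618. Zfp263 had 14.5, Zfp568, the KRAB repressor of a placental Igf2 transcript, had 13.6, and Zfp207, a spindle assembly protein, had 12.5. Zfp296, Zfp428, Zfp553 and Zfp7 overlap another gene, so part of their signal may belong to it.

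**Figure D1:**
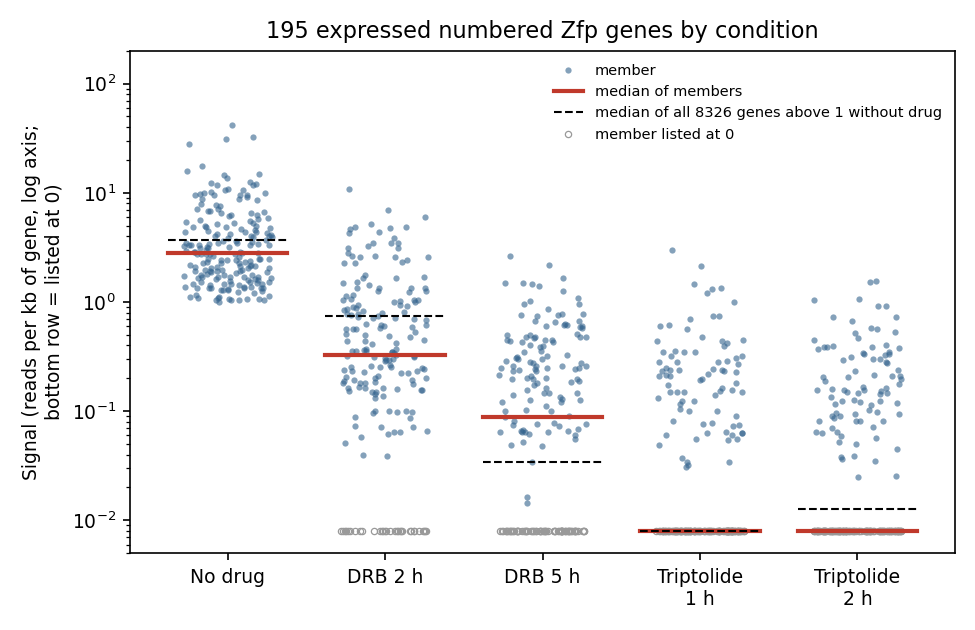
Each point is 1 of the 195 members at its deposited value in reads per kb (log axis; the bottom row holds members listed at 0), with red bars for the members' median and dashed bars for the median of all 8326 genes above 1 without drug. The members' median is 2.78 without drug, 0.325 after 2 h of DRB and 0.0887 after 5 h of DRB, and both medians are 0 after 1 h of triptolide.

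After 2 h of DRB most members stood far below their level without drug, and the typical member kept less than the typical gene. The median member stood at 12.5% of its level without drug, against 19.4% over all 8326 genes above 1. By the size rule of at least 1 on the log2(value + 1) scale, 157 members (80.5%) were lower, against 69.7% of all genes tested, and 1 was higher, against 0.492%. Listed at 0 were 31 members (15.9%), against 9.56% of all genes. Summed over members, 3625 net reads remained against 17589 without drug, 20.6% (19.9 to 21.4), beside 25.5% over all genes above 1. The direction depends on the scaling for single members: 192 had a lower deposited value with DRB, and with columns scaled to equal medians 56 of the members lower on the log2 scale turned higher, although the members' median stayed lower at −0.48 beside −0.04 for all genes. That scaling multiplies the DRB values by 4.95 after 2 h and by 108 after 5 h, so every percent of no drug given here holds on the deposited scale only, and the 20.6% of net reads becomes 102%.

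The smaller remainder after 2 h of DRB was seen at every gene length and level looked at. Split by length into 3 classes of 65, with limits at 11.5 and 19.4 kb, the members had a median of 10.0%, 12.2% and 13.5% from short to long, and over all genes within the same limits it was 21.1%, 21% and 18.4%. By level without drug the members' median was 10.5% from 1 to 2, 8.09% from 2 to 5 and 18.0% above 5, where all genes had 17.5%, 18.9% and 21.1%. These differences were not tested.

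The members that kept the largest share after 2 h of DRB, among those with at least 20 net reads, were led by Zfp647. It was the only member past the size rule upward, with 4.75 reads per kb in the DRB column and 1.54 in the one without drug, 3.09 times as much (1.89 to 5.25) on 68 and 22 net reads. It lies on chr15:76910371-76925448 and has 13 fingers. The ribosomal protein gene Rpl8 lies 4.06 kb downstream on the opposite strand. Rpl8 had 127.7 without drug and 63.6 after 2 h of DRB, and was listed at 0 after 5 h of DRB. Zfp46 had 2.27 both without drug and after 2 h of DRB, on 21 net reads each. Zfp13 had 2.58 after 2 h of DRB against 2.75 without drug. Zfp524, on fewer than 20 net reads, had equal values too. Zfp110, which binds the neurotrophin receptor p75, had 1.64 against 1.96. These intervals run wide, from 52.0% to 192% for Zfp46 and from 65.1% to 135% for Zfp13.

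At the other end, 13 members with at least 20 net reads without drug were listed at 0 after 2 h of DRB. The highest of them without drug was Zfp593, with 9.55 reads per kb on 22 net reads; its yeast counterpart helps export the large ribosomal subunit. Zfp346, which binds double-stranded RNA, had 3.93 on 116 net reads, and the interval of its ratio runs from 0 to 3.23%. Zfp954 had 3.41, Zfp689 had 3.33 and Zfp260 had 2.96. Zfp689 and Zfp954, both with the KRAB pattern, and Zfp593 were also listed at 0 in the 3 other drug conditions, as were Zfp39, Zfp319 and Zfp87. These 6 make 3.08% of members, beside 2.98% of all genes above 1.

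**Figure D2:**
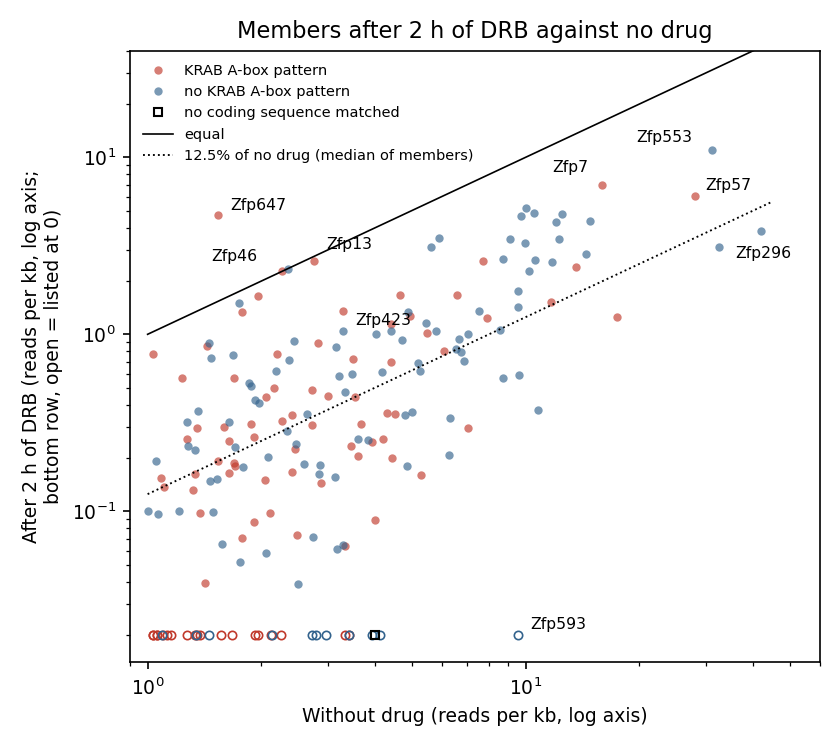
Each point is 1 member, with its level after 2 h of DRB on the vertical axis and its level without drug on the horizontal axis (reads per kb, both log axes; open points in the bottom row are listed at 0), in red with and in blue without the KRAB A-box pattern. Zfp647 stands above the line of equal levels and Zfp46 and Zfp13 lie on or just under it, while most members scatter around the dotted line at 12.5%.

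After 5 h of DRB nearly every member stood low. By the size rule 178 members (91.3%) were lower than without drug, close to the 90.1% of all genes, and none was higher, against 0.132%. Listed at 0 were 74 members (37.9%), against 48% of all genes. Net reads came to 902 against 17589 without drug, 5.13% (4.79 to 5.48), beside 5.94% over all genes above 1. The typical member kept more than the typical gene here, 3.45% against 1.01%, which is the reverse of their order after 2 h. That order depended on the level without drug. Between 1 and 2 reads per kb the typical member kept less, 0.881% against 2.65% of all genes at that level, and 49.3% of members against 44.2% of all genes were listed at 0. Between 2 and 5 the typical member kept 3.97% against 1.55%, and above 5 it kept 4.03% while the typical gene was listed at 0. With columns scaled to equal medians the members' median turned from lower (−1.73) to higher (1.56), and 117 members turned higher, so that the direction rests on the deposited scale.

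Zfp647 stayed above its level without drug after 5 h of DRB, at 2.65 against 1.54 reads per kb (173%, 99.6 to 307). Zfp13 was at 1.27 against 2.75 (46.1%). Zfp169 had 0.426 against 1.08 (39.3%), Zfp143 had 0.505 against 1.45 (34.7%), and Zfp870 had 1.02 against 3.50 (29.2%). Apart from Zfp143 these all have the KRAB pattern, as do 44.9% of the members with at least 20 net reads without drug. Of members with at least 20 net reads without drug, 54 were listed at 0, led by Zfp428, Zfp57, Zfp819, Zfp706 and Zfp414, which had between 10.8 and 32.5 without drug.

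Between 2 h and 5 h of DRB the members' summed reads went down by about the same factor as those of all genes. Net reads after 5 h were 902 against 3625 after 2 h, 24.9% (23.1 to 26.8), beside 23.3% over all genes above 1. By the size rule 26 members (13.3%) were lower, against 29.6% of all genes, and none was higher, against 0.745%. A gene can be called lower here only if its value after 2 h is at least 1. After 2 h 50 of the 195 members and 3484 of the 8326 genes lay above 1, and the part of this floor was not tested. The median difference was −0.25 for members and −0.52 for all genes on the deposited scale, and it turned positive for members with equal medians (1.82) and with quantile normalization (0.05). In deposited value 37 members (19%) were higher after 5 h, against 9.16% of all genes, 131 (67.2%) were lower, against 82.3%, and the rest were listed at 0 in both or equal.

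Of the 45 members with at least 20 net reads at either DRB time, 10 were listed at 0 after 5 h. Zfp57 had been highest of these with 6.02 after 2 h, and Zfp740 followed with 5.19. Zfp622, whose yeast counterpart matures the large ribosomal subunit, and Zfp706, linked to exit from self-renewal, had 3.47 each, and Zfp408 had 3.27. At the high end, Zfp941 had 1.49 after 5 h and 1.02 after 2 h (147%, 72.7 to 304). Zfp292 followed with 0.275 against 0.363, Zfp646 with 1.41 against 2.28, Zfp865 with 1.65 against 2.66, and Zfp1 with 0.762 against 1.27. Their intervals all include equal levels, on 13 to 35 net reads a column.

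**Figure D3:**
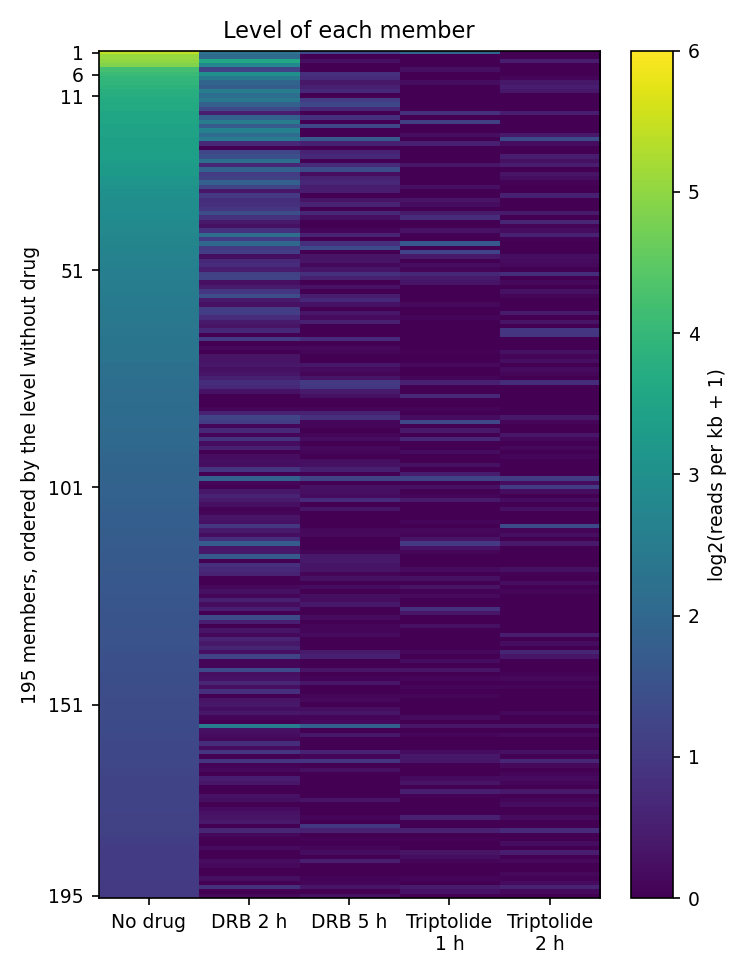
Rows are the 195 members ordered by their level without drug, highest at the top, columns are the 5 conditions, and colour is log2(reads per kb + 1). The DRB 2 h column fades from top to bottom with single brighter rows such as Zfp647, and the 3 other drug columns are dark for most members.

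Members with the KRAB pattern and members without it changed places between the DRB columns. After 2 h the KRAB members had the lower median, 10.8% against 13.8%, and the lower percent of net reads, 18.8% (17.6 to 20.1) against 21.5% (20.6 to 22.4). After 5 h they had the higher median, 5.10% against 1.76%, and the higher percent of net reads, 7.27% (6.56 to 8.04) against 4.12% (3.76 to 4.51). Listed at 0 after 5 h were 28.9% of KRAB members and 45.2% of the others. The KRAB members were also lower without drug, at a median of 2.18 against 3.37 reads per kb, and slightly longer, at 15.6 against 14 kb; the part of level and length in the difference was not tested.

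Members near another Zfp gene differed from members standing away in the same sense after 2 h of DRB. Their median was 10.1% against 16.7%, and their net reads were 17.5% (16.5 to 18.6) against 22.9% (21.9 to 24). Within 250 kb of a Zfp gene, members with and without the KRAB pattern had similar medians after 2 h, 10.3% and 10.1%, and away from one they had 14.4% and 17.6%. After 5 h the split ran along the KRAB pattern in both places: 4.60% against 0.315% near another Zfp gene, and 7.06% against 1.86% away from one. On chromosome 7 the 66 members kept 15.7% of net reads (14.5 to 16.9) after 2 h, and members elsewhere kept 22.6% (21.7 to 23.6). By number of fingers the medians after 2 h of DRB lay between 9.55% and 15.4%, with no steady order.

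**Figure D4:**
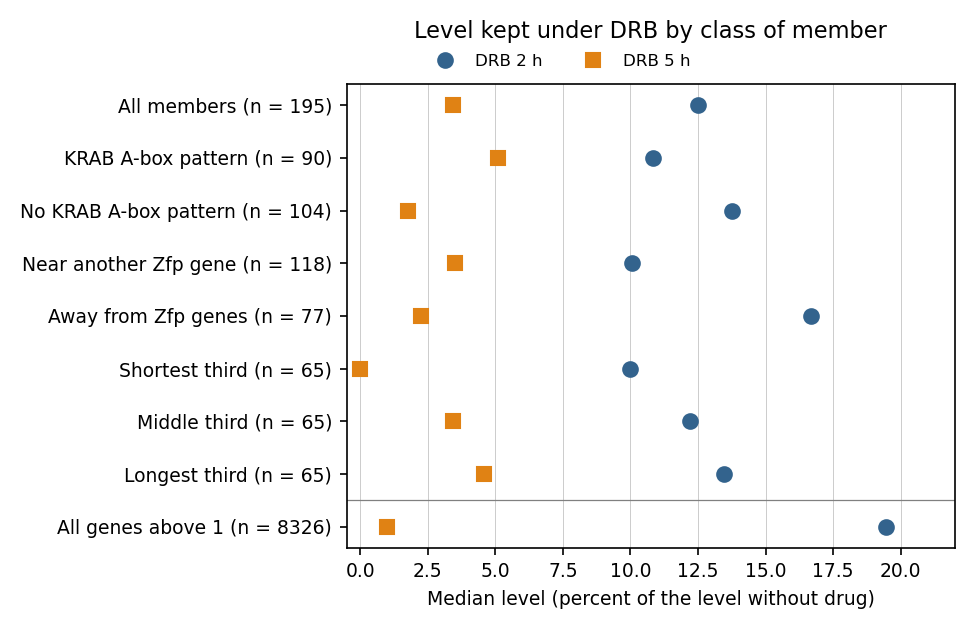
Points give the median level as a percent of the level without drug for classes of members, blue circles after 2 h and orange squares after 5 h of DRB, with all 8326 genes above 1 in the bottom row. The 8 rows of members plotted lie left of all genes after 2 h, between 10.0% and 16.7% against 19.4%, and of these rows the KRAB members lie furthest right after 5 h, at 5.10%.

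Triptolide left little signal of the members at either time. After 1 h, 178 members (91.3%) were lower by the size rule than without drug, against 92.7% of all genes, none was higher, against 0.0841%, and 112 (57.4%) were listed at 0, against 60.1%. After 2 h, 179 members (91.8%) were lower, against 91.7% of all genes, none was higher, against 0.132%, and 105 (53.8%) were listed at 0, against 49.8%. These shares lie near the background and single out nothing about the members. With quantile normalization 63 members turned higher after 1 h and 56 after 2 h, and with equal medians 90 did after 2 h. Net reads were 799 after 1 h, 4.54% (4.23 to 4.88) of those without drug, and 457 after 2 h, 2.60% (2.36 to 2.85), beside 3.45% and 3.31% over all genes above 1.

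The sum after 1 h of triptolide rests on Zfp423, the longest member at 297.8 kb (chr8:87661810-87959595) and a cofactor of Smad proteins in BMP signalling that also marks fat cell precursors. Zfp423 had 3.29 reads per kb without drug. With triptolide it had 1.47 at 1 h and 0.0571 at 2 h, and its DRB values were 1.04 at 2 h and 0.0739 at 5 h. Its 439 net reads after 1 h of triptolide were 54.9% of all reads of the members, and without it the members kept 2.17%. It stood at 44.8% (39.9 to 50.2) of its level without drug, where 151 genes of at least 150 kb had a median of 5.50%, with 15 at or above Zfp423. The other 2 members of at least 150 kb, Zfp704 and Zfp827, had 0.0546 and 0.0605 after 1 h, against 1.70 and 1.05 without drug.

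Zfp13 kept the largest share of its level under triptolide among members with at least 20 net reads. It had 1.35 after 1 h and 1.06 after 2 h, against 2.75 without drug, 49.2% (31.2 to 76.3) and 38.5% (23.2 to 61.9). Its nearest upstream neighbour, Zscan10, 1.37 kb away on the opposite strand, was listed at 0 at both times, against 32.1 without drug. After 1 h Zfp281, a pluripotency regulator, had 2.13 against 5.63, Zfp212 had 0.740 against 1.97 and Zfp184 had 0.446 against 1.28, and the first 2 of these were listed at 0 after 2 h. After 2 h Zfp239 had 0.536 against 1.79, Zfp446 had 0.924 against 4.16, Zfp870 had 0.729 against 3.50 and Zfp949 had 0.390 against 1.91. These remainders rest on 6 to 11 net reads, and 84 of the 158 members with at least 20 net reads without drug were listed at 0 after 2 h. Zfp296, the highest member, had 2.97 after 1 h on 10 net reads and was listed at 0 after 2 h. Zfp428, Zfp57 and Zfp7 were listed at 0 at both times and Zfp819 after 2 h, while Zfp553 and Zfp532 were listed at 0 after 1 h and had 0.391 and 0.0641 after 2 h.

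Between the triptolide times few members passed the size rule. By that rule 5 were lower (2.56%) after 2 h than after 1 h, against 2.44% of all genes, and 2 were higher (1.03%), against 2.92%. The rule can call a gene only where 1 of the 2 values is at least 1. Above 1 lay 7 members after 1 h and 4 after 2 h, and 410 and 455 of the 8326 genes. The part of this floor was not tested. In deposited value 67 members (34.4%) were higher after 2 h, against 37.1% of all genes, and 57 (29.2%) were lower, against 25.5%. At 0 in both were 67 members (34.4%), against 34.9% of all genes, and 45 (23.1%) were above 0 in both, against 25% of all genes. The members' net reads after 2 h were 57.2% (50.9 to 64.2) of those after 1 h, beside 96.1% over all genes above 1. Zfp423 supplied 439 of the members' 799 net reads after 1 h and 17 of their 457 after 2 h. Only 4 members had at least 20 net reads in 1 of the columns: Zfp423 and Zfp13, given above, Zfp1 with 0.726 after 2 h against 0.617 after 1 h, and Zfp64 with 0.466 against 0.0321. Zfp64, whose human counterpart activates the MLL promoter, had 29 net reads after 2 h and 2 after 1 h.

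At 2 h, the time both drugs share, DRB left more signal than triptolide. By the size rule 38 members (19.5%) were higher with DRB, against 32.9% of all genes, and 1 was lower, against 0.697%. The rule can call a gene higher only where its DRB value is at least 1. Above 1 there were 50 of the 195 members and 3484 of the 8326 genes, and the part of this floor was not tested. Net reads were 3625 with DRB and 457 with triptolide, 7.93 times as many (7.20 to 8.76), beside 7.69 times over all genes above 1. In deposited value 150 members (76.9%) were higher with DRB, against 83.1% of all genes, and 23 (11.8%) were lower, against 8.59%. With equal medians 61 of the higher ones turned lower on the log2 scale. Zfp7 with 7.01, Zfp57 with 6.02, Zfp740 with 5.19, Zfp219 with 4.30 and Zfp706 with 3.47 after DRB were all listed at 0 after triptolide. The ratios of members above 0 in both columns were lowest in Zfp1, with 1.27 against 0.726 (1.75 times, 0.983 to 3.20), and Zfp335, with 1.01 against 0.453 (2.22 times). Zfp704, Zfp13 and Zfp148 followed at 2.33, 2.44 and 2.50 times. Those 5 are at the low end of 44 members with at least 20 net reads in 1 of the columns.

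**Figure D5:**
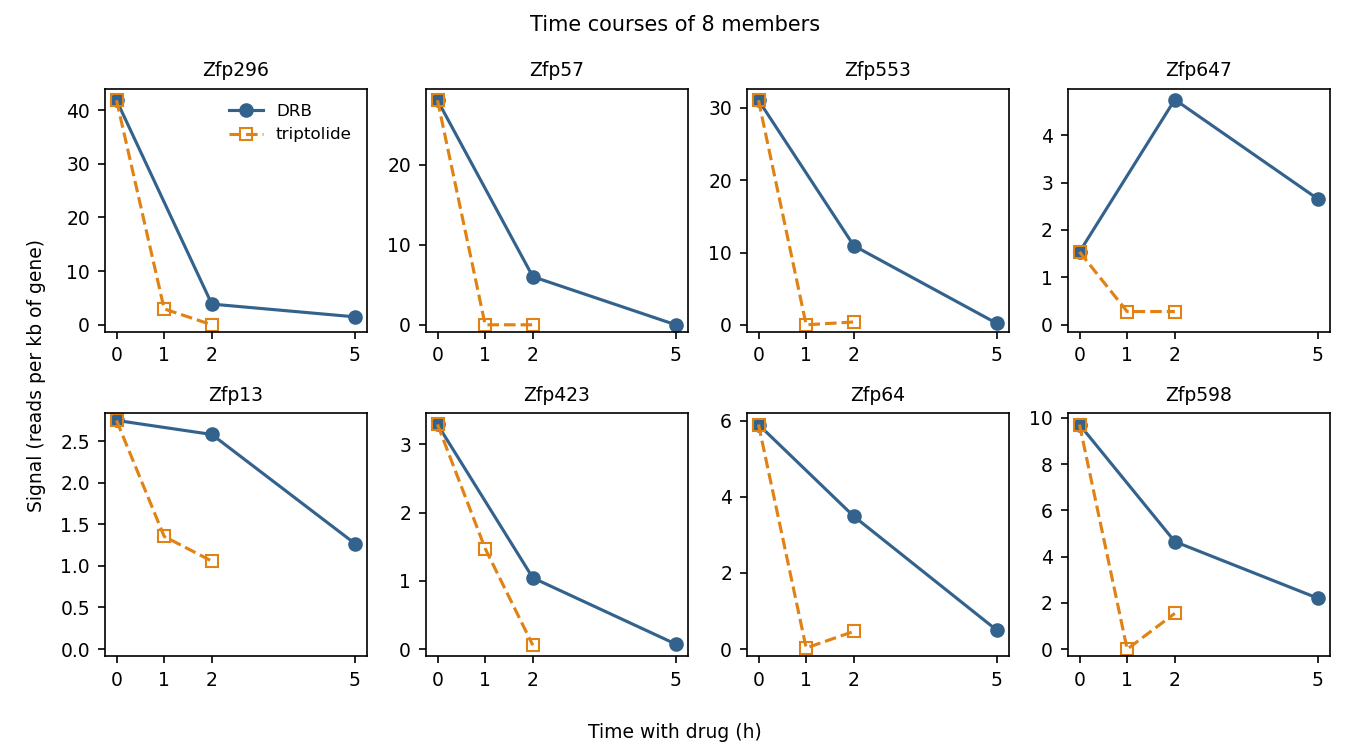
Each panel plots the level of 1 member in reads per kb against hours of drug, with blue circles for DRB and orange squares for triptolide, both starting from the value without drug; vertical scales differ between panels. Zfp57 and Zfp553 end at or near 0 in both courses, Zfp647 peaks at 4.75 after 2 h of DRB, Zfp13 stays at or above 1.06, and Zfp423 is at 1.47 after 1 h and 0.0571 after 2 h of triptolide.

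Among members with a known role, the KRAB repressors with known targets lay above the members' median without drug and stood lower with either drug. Of 7 genes listed 5 were members, and all 5 were lower by the size rule in each of the 4 drug conditions, beside 69.7% to 92.7% of all genes. All but Zfp809 lay above 5 without drug, where the rule calls most genes lower. At that level 45 of 50 members and 2662 of 3193 genes were lower after 2 h of DRB. In the other drug conditions all 50 members and 3137 to 3171 of the genes were, so the calls single out nothing about the 5. The median of the 5 was 13.6 reads per kb without drug, 17.7% of that after 2 h of DRB and 3.32% after 5 h. Zfp819 had 17.5 without drug and 1.26 after 2 h of DRB and was listed at 0 after 5 h. Zfp445, which guards imprints beside Zfp57, had 7.05, 0.294 and 0.392 at the same times, the smallest share of the 5 after 2 h, 4.17% (1.50 to 9.29). Zfp568 had 13.6, 2.41 and 0.451. Zfp809, which silences retroviruses in embryonic stem cells, had 4.40, 1.14 and 0.286, the largest share after 2 h at 26.0%. The remaining 2 listed genes, Zfp932 at 0.936 and Zfp708 at 0.630 without drug, lay under the threshold. The levels given therefore describe only the listed genes that passed it, and not the 7 as a class.

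Stem cell and developmental regulators ranged widely after 2 h of DRB. Of 10 genes listed 7 were members, and 5 of them were lower by the size rule after 2 h, against 69.7% of all genes. Their median was 28.4% of no drug, and they kept 27.1% (24.5 to 30) of net reads, which rested on the long gene Zfp423: without it the other 6 kept 21.3% (17.9 to 25.3), beside 20.6% for all members. Zfp143, a promoter-binding activator, had 0.891 after 2 h against 1.45 without drug, 61.2% (37.5 to 98.4). Zfp281 had 3.11 against 5.63, 55.2% (28 to 105). Zfp706 had 3.47 against 12.2, 28.4%, and Zfp423 kept 31.7%. The lower shares were 19.4% in Zfp462, 13.2% in Zfp217 and 9.22% in Zfp296.

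Members that bind chromatin or transcription cofactors were mostly long genes. Of 13 listed 10 were members, with a median length of 73.0 kb, and 7 were lower by the size rule after 2 h of DRB, against 69.7% of all genes, and 9 after 5 h, against 90.1%. Zfp532, Zfp592 and Zfp687, which are partners of 1 chromatin reader complex, went apart after 2 h: Zfp532 kept 29.7% (26.7 to 32.9) with 4.40 against 14.8 reads per kb, Zfp592 kept 2.83% (0.575 to 8.50) with 0.0583 against 2.06, and Zfp687 kept 5.36% (1.07 to 16.5) with 0.339 against 6.32. Zfp687 overlaps Pi4kb on the opposite strand. After 5 h of DRB 6 of the 10 were listed at 0, against 48% of all genes. The other 7 kept between 9.77% in Zfp148, which binds GC-rich promoters, and 25% in Zfp652 after 2 h of DRB.

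Members that act on RNA, ribosomes, ubiquitin or SUMO spread widely. All 11 with a row in the table were members of the 12 listed, and 9 were lower by the size rule after 2 h of DRB, against 69.7% of all genes, with a median of 9.70% of no drug. Zfp598, a ubiquitin ligase at collided ribosomes, had 4.65 after 2 h of DRB and 2.20 after 5 h, against 9.70 without drug. It was listed at 0 after 1 h of triptolide and had 1.55 after 2 h, on 19 net reads. Zfp207 and Zfp622 kept 38.6% and 38.3% after 2 h of DRB. Zfp326, a partner in a splicing and elongation complex, was listed at 0 against 1.45 without drug, as were Zfp346 and Zfp593. Zfp91, a ubiquitin ligase, kept 1.94% and Zfp330, a nucleolar protein, kept 6.52%.

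The corepressor genes that KRAB proteins work through were described beside the members. The 14 of 15 listed genes with a row in the table kept 42.3% (40.4 to 44.1) of their net reads after 2 h of DRB, beside 20.6% for members and 25.5% over all genes above 1. After 5 h of DRB they kept 3.19% (2.77 to 3.65), beside 5.13% for members. Without drug their median level was 9.39 reads per kb and their median length 39.2 kb, against 2.78 and 14.7 in members. Trim28 itself had 48.1 after 2 h of DRB against 85.4 without drug and was listed at 0 after 5 h and at both triptolide times. The maintenance methyltransferase Dnmt1 had 6.72 against 9.19, the methyltransferase Setdb1 had 1.84 against 4.22, and Mphosph8, of the HUSH silencing complex, was listed at 0 against 3.19. Trim28 supplied 1655 of their 2879 reads after 2 h of DRB, without it the other 13 kept 31.6% (29.6 to 33.7), and the difference between these genes and the members was not tested.

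Other zinc finger families gave values on both sides. The percent of net reads kept after 2 h of DRB was 26.1% in 29 Zbtb genes, 28.4% in 8 Zscan genes, 29.9% in 12 Klf genes and 28.9% in 5 Sp genes. It was 52.6% (45.6 to 60.6) in 6 Zkscan genes, or 25.9% (20.1 to 33.2) without Zkscan17, and 15.7% (13.2 to 18.5) in 12 Zfp genes with a letter after the number. In 42 genes with the KRAB pattern that are not members it was 14.3% (12.7 to 16.2), below the 18.8% of the KRAB members. Those 42 were taken by the KRAB pattern alone and may include genes without fingers. Of 311 genes in the deposited table with that pattern, 278 had a C2H2 finger pattern. These sets share some genes, and their differences were not tested.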

How the data were processed

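The study has 20 samples in 10 groups of 2 replicates, with 10 tagged and 10 untagged samples. The submitters' processing notes name Bowtie and the build GRCm38 (mm10), and per the file headers genes are those of Ensembl 72. The values deposited by the authors are a signal, namely reads per kilobase of protein-coding gene with negative values set to 0, in 1 column per condition. How replicates were combined, how background was subtracted, how columns were scaled and whether strand was used remain unknown from the labels and headers.

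Within a gene all deposited values are whole multiples of 1000 divided by the gene's length, so net reads were recovered by dividing by that step, and all 55478 values above 0 came out whole within 0.01 reads, which follows from how lengths were found. Of the members 110 had the GENCODE M21 span as length, 77 a length near it and 8 only the length implied by the step. Differences are log2(value + 1), and a size of at least 1 counts as lower or higher. The planned limma test needs replicate columns, so values are given with no test. Ratios of net reads carry 95% intervals by the exact (Clopper-Pearson) method, which takes net reads as plain counts and leaves out the error of the subtracted background. All 8326 genes with a value above 1 without drug are the background. Comparisons of a drug with no drug share the column without drug.

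Named genes are the 10 highest members without drug, the 5 highest and 5 lowest ratios per comparison among members with at least 20 net reads in 1 of the columns (those listed at 0 ranked by the second column), 3 genes on each side of the threshold, and up to 4 in full per list. Zfp39, Zfp319, Zfp87, Zfp524, neighbouring genes, other corepressor genes and the motif holders were named after their values were seen. The members and lists were chosen with earlier results of these data known. Fingers were counted as C2H2 patterns with 2 to 4 residues between cysteines, 12 to the first histidine and 3 to 5 between histidines. The classes had been planned on RefSeq proteins, and translated GENCODE M21 coding sequences were used in their place. Promoter windows are from RefSeq (GRCm38.p6). The length recovery was tested on simulated data. Alternatives were pseudocounts of 0.1 and 10, columns scaled to equal medians, quantile normalization, other filters, and leaving out the member with most reads or, chosen after seeing the data, members that overlap another gene. Python 3.11.15, pandas 2.3.3, numpy 2.4.6, scipy 1.17.1 and matplotlib 3.10.9 were used.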

Additional observations from a re-analysis of the deposited data

How the results depend on the processing

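Values below are the percent of members lower by the size rule unless said otherwise, in the order 2 h of DRB, 5 h of DRB, 1 h of triptolide and 2 h of triptolide against no drug (80.5%, 91.3%, 91.3% and 91.8% as reported), then 5 h against 2 h of DRB (13.3%), 2 h against 1 h of triptolide (2.56%) and DRB against triptolide at 2 h (0.513%). A pseudocount of 0.1 gave 92.3%, 98.5%, 99.5%, 98.5%, 51.3%, 18.5% and 6.67%, and one of 10 gave 2.56%, 7.69%, 8.72%, 9.74%, 0.513%, 0% and 0%, because a larger pseudocount shrinks the difference of low genes. Quantile normalization gave 6.67%, 14.4%, 24.1%, 19.5%, 8.72%, 15.9% and 11.8%, and the sign of the median turned in 5 h against 2 h of DRB. Columns scaled to equal medians gave 35.4% and 37.9% for 2 h and 5 h of DRB, 53.8% for 2 h of triptolide, 21% for 5 h against 2 h of DRB and 44.6% for DRB against triptolide, and the median turned from lower to higher in both comparisons of 5 h of DRB. In net reads that scaling reversed the direction everywhere it could be run, to 102%, 554% and 756% of no drug for 2 h of DRB, 5 h of DRB and 2 h of triptolide, 543% for 5 h against 2 h of DRB and 13.5% for DRB against triptolide. Equal medians could not be run for 1 h of triptolide, whose median is 0. For DRB against triptolide the percent of members higher was 19.5% as reported. It was 60% with a pseudocount of 0.1, 0.513% with one of 10, 31.8% with equal medians and 15.4% with quantile normalization.

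Members above 5 without drug gave 90.0%, 100%, 100%, 100%, 44.0%, 8.00% and 0% lower, and 23.9%, 4.67%, 1.02%, 1.74%, 19.6%, 171% and 1371% of net reads, so that 2 h against 1 h of triptolide reversed; Zfp423, at 3.29 without drug, is not among them. With no filter on the level without drug 51.3%, 58.2%, 58.2% and 58.5% were lower than without drug and 8.82% lower after 5 h than 2 h of DRB. Members with at least 20 net reads gave 86.1%, 95.6% and 96.2% for 2 h of DRB, 5 h of DRB and 2 h of triptolide, then 42.2%, 25% and 0%. Without the member with most net reads the percent of net reads was 19.7% for 2 h of DRB, 2.17% for 1 h of triptolide and 699% for DRB against triptolide. Without members that overlap another gene, chosen after seeing the data, it was 5.31% after 1 h of triptolide. The percent of members higher with DRB than with triptolide was 58% in members above 5 and 13.1% with no filter on the level. It was 59.1% in members with at least 20 net reads and 14% without members that overlap another gene. The cause of these shifts was not tested beyond how each alternative is built, and 20 other values stayed close to those reported.

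No paired analysis was possible because the deposited columns combine the replicates of a condition and carry no replicate number, so leaving out a replicate was not run either. Depth limits single members: the median member had 45 net reads without drug and 5 after 2 h of DRB.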

Other observations

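The members' share of the net reads over all genes differed between the columns. It was 1.41% (1.39 to 1.43) without drug, 1.09% (1.05 to 1.12) after 2 h of DRB and 0.949% (0.888 to 1.01) after 5 h of DRB. After 1 h of triptolide it was 1.09% (1.01 to 1.16) with Zfp423 and 0.492% (0.443 to 0.545) without it, and after 2 h it was 0.737% (0.672 to 0.808). A share does not depend on a common scaling of a column. It does depend on the choice of genes, because the members had to exceed 1 without drug and the genes in the whole did not. All genes above 1 without drug held 1114380 of 1245285 net reads without drug. They held 284013 of 332908 after 2 h and 66226 of 95064 after 5 h of DRB. With triptolide they held 38421 of 73616 at 1 h and 36923 of 61972 at 2 h. The part of that choice was not tested. The member with most reads was Zfp532 in the column without drug and in both DRB columns, and Zfp64 after 2 h of triptolide. Without that member the members' share was 1.28%, 0.946%, 0.873% and 0.691% in these columns.

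Above 0 in all 4 drug conditions were 32 members (16.4%), beside 17.8% of all genes above 1 without drug. Above 1 in at least 1 drug condition were 53 members (27.2%), beside 45% of the same genes. Gene length ordered the members' zeros after 5 h of DRB, with 52.3% of the 65 shortest, 35.4% of the 65 in the middle and 26.2% of the 65 longest listed at 0, and the same order held over all genes within those limits, with 58.3%, 50% and 38.5%. Shorter genes hold fewer reads at a given level, and the part of depth in that order was not tested.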
